A study of Saccharomyces cerevisiae with 3 samples.

Results

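The genes described here are mating genes that mark alpha cells of budding yeast, genes whose enzymes process the pheromone of these cells, and HMRA2. HMRA2 is a gene of a silent mating-type cassette. They are 7 of 6282 genes on the arrays, chosen by the gene name in the files. MF(ALPHA)1 and MF(ALPHA)2 encode the pheromone alpha-factor, STE3 the receptor for the pheromone of the other sex, SAG1 the agglutinin of alpha cells, and KEX2 and STE13 enzymes that trim the alpha-factor precursor. Each gene had 1 row of 15 probe pairs.

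The study measured messenger RNA of Saccharomyces cerevisiae on 3 NimbleGen arrays of 1 colour, 1 for each condition. All used BY4742, a haploid laboratory strain of the alpha mating type with deletions in the marker genes HIS3, LEU2, LYS2 and URA3. The control cultures grew at 24 °C and atmospheric pressure (0.1 MPa). For high pressure, cultures spent 5 h at 25 MPa without a change of temperature. For low temperature, they spent 5 h at 15 °C without a change of pressure. For the control the labels give harvest at the growth density, with no such incubation. In every comparison with the control, the stress and the 5 h of further culture therefore cannot be told apart. RNA of 3 cultures was pooled for each condition, so no condition has a replicate. With 1 array a condition the precision is limited and no difference could be tested. In pooled RNA, less RNA per cell and fewer cells that express a gene cannot be told apart. The descriptions attached to the samples give a different strain and temperature, and the titles and design text were followed.

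Haploid yeast mate as a cells or alpha cells, and the MAT locus decides which. In alpha cells MAT encodes alpha1, which with Mcm1 switches on the alpha-specific genes, and alpha2, which with Mcm1 keeps the a-specific genes off. HML and HMR hold silent copies of the alpha and a cassettes, kept off by Sir proteins. The a2 frame of the a cassette has the sequence of the end of alpha2, so probes for HMRA2 can read the alpha2 transcript of MAT. Alpha-factor is made as a long precursor that Kex2 cuts after pairs of basic residues, Kex1 trims at one end and Ste13 trims at the other.

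Levels below are log2 values that the authors made with robust multiarray average (RMA) unless the perfect-match intensity is named. That intensity is the mean brightness, in scanner units, of the 15 probes of a row that match the gene. A gene is said to be above mismatch on an array when its perfect-match probes exceeded their mismatch probes by a t value over 1.76. All 7 genes were above mismatch on all 3 arrays, as were 46.2% of 6282 genes. On single arrays 54.3% of genes passed in the control, 62.3% under pressure and 60.7% in the cold. The rows that mark the other mating type were mostly not above mismatch. HMRA1, the a1 gene of the silent a cassette, was at 4.09 in the control, 4.19 under pressure and 4.19 in the cold, above mismatch on no array. Of 7 a-specific genes, STE2 was above mismatch on all 3 arrays and AGA2 on the control and high-pressure arrays. MFA1, MFA2, STE6, BAR1 and ASG7 were above mismatch on none. For MFA1 and MFA2 the spread among probes was wide. In the control their perfect-match intensities were 875 ± 1671 and 689 ± 702 (SD over 15 probes), against mismatch intensities of 263 and 425. The levels of MFA2 were 9.06 in the control, 9.05 under pressure and 9.06 in the cold, so not every such row was dim. Of the marker genes with deletions in the strain, LYS2, URA3 and LEU2 were above mismatch on no array and HIS3 on all 3. The extent of each deletion is not given here.

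**Figure D1:**
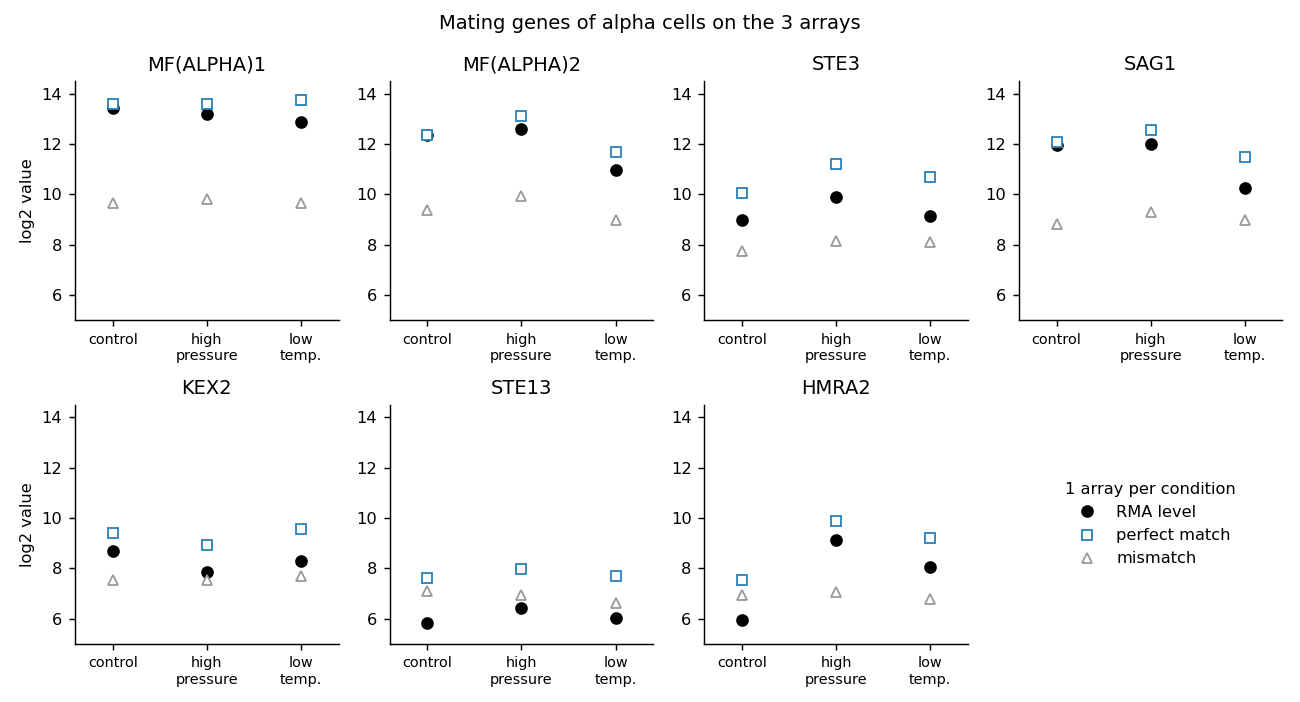
Log2 RMA level (filled circles), log2 mean perfect-match intensity (open squares) and log2 mean mismatch intensity (open triangles) of the 7 genes, with 1 array for each condition. HMRA2 is low in the control and high on the other arrays, while MF(ALPHA)2 and SAG1 are lowest in the cold.

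A gene was counted as higher or lower when 2 arrays differed by at least 1.5-fold, the size named in the series' design text, and the brighter level reached the 25th percentile on its array. Under pressure 2 of the 7 genes were higher than in the control (HMRA2 and STE3) and 1 was lower (KEX2), where 28.1% of 4912 genes were higher and 12.3% lower. In the cold 1 was higher than in the control (HMRA2) and 2 were lower (SAG1 and MF(ALPHA)2), where 34.7% of 4887 genes were higher and 9.64% lower. Between the stresses, 4 of the 7 were higher under pressure than in the cold (SAG1, MF(ALPHA)2, HMRA2 and STE3) and 0 were lower, where 4.26% of 4807 genes were higher and 10.1% lower. The split over all genes rests on the scaling: with RMA levels centred on the array medians 824 were higher and 1251 lower under pressure, 718 and 1521 in the cold, and 424 and 211 for pressure against cold. The first and second of these comparisons share the control array, and every array enters a pair of comparisons. The median gene itself had a log2 ratio of 0.13 under pressure, 0.26 in the cold and -0.12 for pressure against cold. The 7 genes had medians of 0.22, -0.39 and 0.77.

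**Figure D2:**
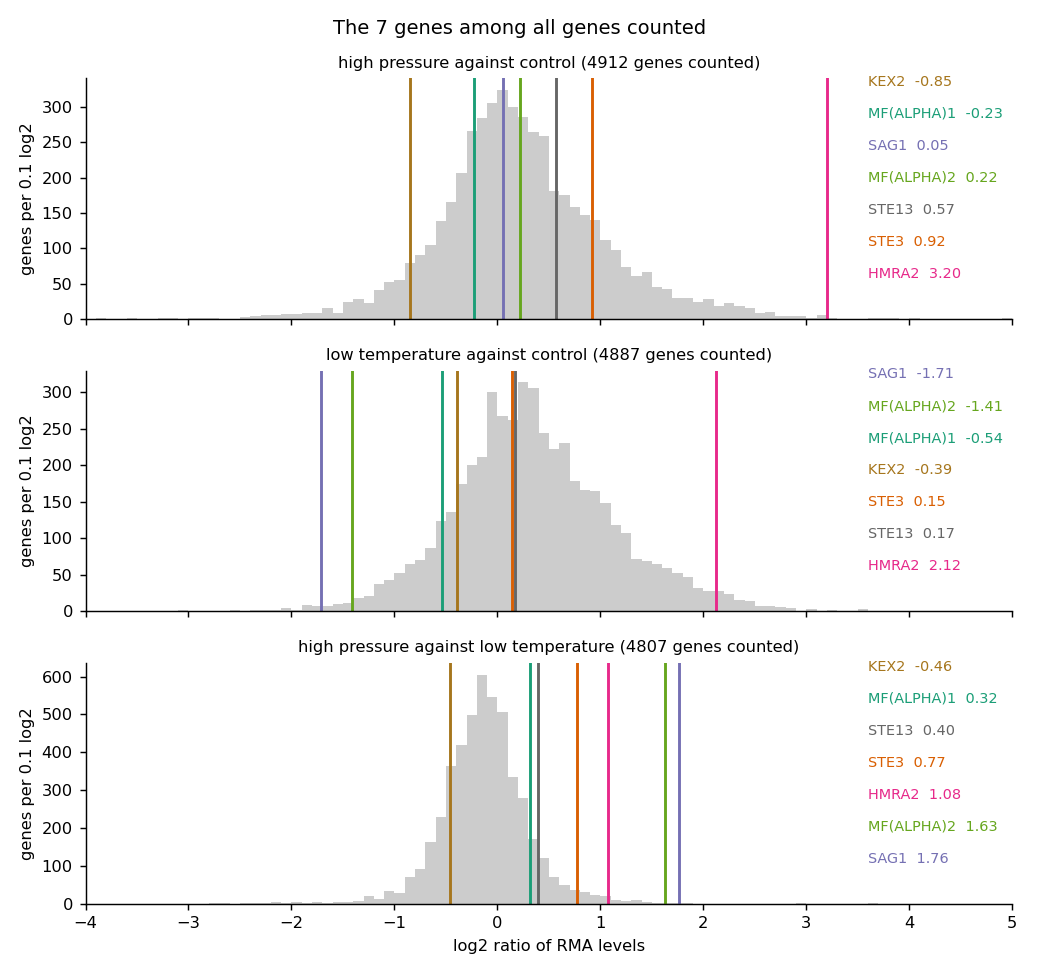
Histograms of the log2 ratio of RMA levels over all genes counted in each comparison, in steps of 0.1, with the 7 genes as coloured lines and their ratios written at the right. HMRA2 lies far to the right in the first comparison at 3.20, SAG1 at -1.71 and MF(ALPHA)2 at -1.41 lie to the left in the second, and SAG1 and MF(ALPHA)2 lie to the right in the third.

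MF(ALPHA)1, the gene that supplies most alpha-factor, had log2 levels of 13.43 in the control, 13.21 under pressure and 12.89 in the cold. Its perfect-match intensities were 12258, 12221 and 13875. The 3 arrays therefore lay close together for this gene, and the cold array was the lowest by RMA and the highest by intensity. Its log2 ratio was -0.23 under pressure and -0.54 in the cold, both inside 1.5-fold, and 0.32 for pressure against cold. Whether it is lower in the cold depends on the scaling: the cold ratio was 0.18 with perfect-match intensities, -0.35 with those intensities centred on the array medians, and -1.10 with RMA levels centred on the array medians.

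MF(ALPHA)2 encodes a second precursor of the same pheromone, with fewer repeats. Its levels were 12.36 in the control, 12.58 under pressure and 10.94 in the cold. The perfect-match intensities were 5245 ± 2581, 8825 ± 3945 and 3265 ± 1708 (SD over 15 probes). That SD is the spread among probes of different affinity on 1 array and no error between cultures. The cold array was the low one on both scales, by 1.41 on the log2 scale (2.66-fold lower) against the control. Of 4887 genes counted, 62 had a cold ratio as low or lower. Against the cold array the high-pressure array was higher by 1.63 (3.10-fold), and 7 of 4807 genes had a ratio as high. Under pressure against the control the ratio was 0.22, inside 1.5-fold, but 0.75 with perfect-match intensities. The 2 alpha-factor genes thus differed in size in the cold, with ratios of -0.54 and -1.41. They share sequence over the pheromone repeats, so probes of each can read transcripts of the other.

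STE3, the receptor through which alpha cells sense a-factor, had levels of 8.98 in the control, 9.89 under pressure and 9.12 in the cold. Its perfect-match intensities were 1072, 2329 and 1655. The high-pressure array was the high one on both scales. Under pressure STE3 gained 0.92 on the log2 scale (1.89-fold higher), and 849 of 4912 genes had a ratio as high. With the RMA levels centred on the array medians the ratio was 0.57, just inside 1.5-fold. In the cold the ratio was 0.15, and 0.63 with perfect-match intensities. Set against the cold, the high-pressure level was higher by 0.77 (1.71-fold), and 122 of 4807 genes had a ratio as high, but with perfect-match intensities it was 0.49, inside 1.5-fold.

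SAG1 encodes alpha-agglutinin, the wall protein by which alpha cells stick to Aga2 on a cells. Its levels were 11.95 in the control, 12.00 under pressure and 10.24 in the cold, and its perfect-match intensities 4281, 5994 and 2835. The control and high-pressure arrays differed by 0.05 on the log2 scale, while the cold array was the low one. In the cold SAG1 was lower by 1.71 on the log2 scale (3.27-fold lower), and 34 of 4887 genes had a ratio as low or lower. The high-pressure level exceeded the cold one by 1.76 (3.39-fold), a ratio that 5 of 4807 genes, itself included, reached. The cold ratio was smaller with perfect-match intensities, at -0.59. The median row had an intensity of 278 in the control and 400 in the cold, and with each array centred on its median the ratio was -1.12.

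KEX2 encodes the Golgi protease that cuts the alpha-factor precursor. Its levels were 8.68 in the control, 7.84 under pressure and 8.29 in the cold, with perfect-match intensities of 670, 492 and 746. The high-pressure array was the low one on both scales. KEX2 was lower by 0.85 on the log2 scale (1.80-fold lower) under pressure, and 344 of 4912 genes had a ratio as low or lower. With perfect-match intensities the ratio was -0.45, inside 1.5-fold. The cold ratio was -0.39 by RMA and 0.16 with perfect-match intensities. Pressure against cold was at -0.46 by RMA, inside 1.5-fold, and at -0.60 with perfect-match intensities, past it.

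STE13 encodes the dipeptidyl aminopeptidase that removes the dipeptides left at the start of each alpha-factor repeat. Its levels were 5.84 in the control, 6.41 under pressure and 6.01 in the cold, and its perfect-match intensities 196, 251 and 206 against mismatch intensities of 136, 121 and 99. Its ratios were 0.57 under pressure, 0.17 in the cold and 0.40 for pressure against cold, all inside 1.5-fold. The processing enzymes KEX2 and STE13 had ratios of opposite sign under pressure.

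HMRA2 had the largest ratios of the 7 genes against the control. Its levels were 5.94 in the control, 9.14 under pressure and 8.06 in the cold. The perfect-match intensities were 186 ± 89, 952 ± 713 and 595 ± 405 (SD over 15 probes), while the mismatch intensities were 124, 133 and 109. The control was the low array and the high-pressure array the high one. Under pressure its level was 3.20 above the control on the log2 scale (9.18-fold), a ratio that 9 of 4912 genes, itself included, reached. In the cold it was higher by 2.12 (4.36-fold), and 116 of 4887 genes had a ratio as high. Pressure against cold gave 1.08 (2.11-fold), reached by 49 of 4807 genes. Over the other ways of making the values the pressure ratio ran from 2.12 to 3.72 and the cold ratio from 1.15 to 2.97, so both stayed past 1.5-fold. HMRA2 is 360 bases long in the RefSeq annotation of assembly R64, so its 15 probes of 60 bases, 900 bases in all, must overlap each other. Short genes had higher ratios as a group, with a median of 0.31 under pressure for the 578 genes of at most 450 bases, and without that trend the HMRA2 ratio was 2.88.

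The rows for alpha2 itself had the same order of arrays as HMRA2. MATALPHA2, at the expressed locus, had levels of 6.20 in the control, 9.15 under pressure and 8.09 in the cold. HMLALPHA2, its silent copy, had levels of 6.58, 9.27 and 8.10. Their pressure ratios were 2.95 and 2.70, and their cold ratios 1.89 and 1.52. In perfect-match intensity the 3 alpha2 rows nearly coincided on each array: 186, 191 and 184 in the control, 952, 998 and 1018 under pressure, and 595, 591 and 555 in the cold, for HMRA2, MATALPHA2 and HMLALPHA2. Which locus gave the signal cannot be read from rows that share their sequence. Among 4399 other genes above mismatch on at least 1 array, MATALPHA2 was the nearest to HMRA2 in the pair of ratios against the control, at a distance of 0.34. ERG28, a membrane protein of ergosterol synthesis, at 0.37 and GRX1, a glutaredoxin, at 0.38 came next. MATALPHA2 shares sequence with HMRA2, so its nearness is no separate result. HMLALPHA2 shares it too but was not among the 3 nearest. Its RMA ratios were lower than those of HMRA2 by 0.50 under pressure and 0.61 in the cold.

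**Figure D3:**
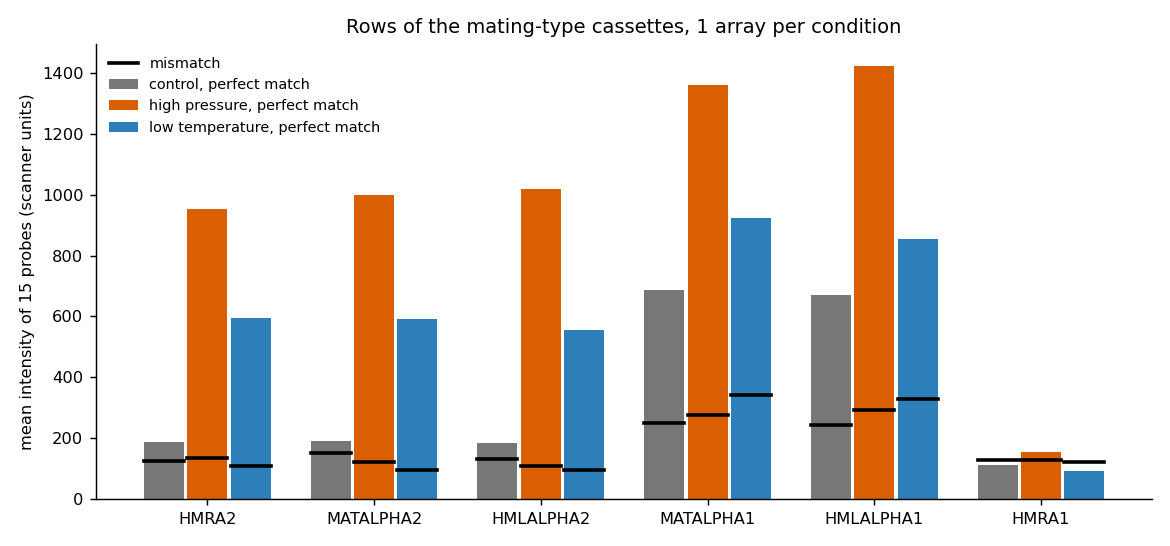
Mean perfect-match intensity (bars) and mean mismatch intensity (black lines) of 15 probe pairs for the 6 rows of the mating-type cassettes, 1 array for each condition. The 3 alpha2 rows (HMRA2, MATALPHA2, HMLALPHA2) share 1 pattern, the 2 alpha1 rows are highest under pressure too, and HMRA1 stays near its mismatch level.

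The alpha1 gene, transcribed from the same promoter region in the other direction, was higher under pressure by a smaller amount. MATALPHA1 had levels of 8.20 in the control, 9.31 under pressure and 8.53 in the cold, and HMLALPHA1 had 8.03, 9.79 and 8.70. Their pressure ratios were 1.11 and 1.76, and their cold ratios 0.33 and 0.67, of which the HMLALPHA1 value was past 1.5-fold, but at 0.11 with RMA levels centred on the array medians. MAT and HML carry the same alpha1 coding sequence, yet the ratios of these rows differed by 0.64 under pressure and 0.34 in the cold on the RMA scale. In perfect-match intensity the gap was 0.10 under pressure. All 5 alpha1 and alpha2 rows were past 1.5-fold higher under pressure than in the control and than in the cold, but against the cold 4 were with perfect-match intensities. HMRA1, the other gene of the silent a cassette, was above mismatch on none of the arrays and is given no ratio.

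The nearest genes with a row on each side of the cassettes, in the R64 gene order, were looked up after the values were seen. Genes without a row were passed over. Beside HMR, OCA4 had levels of 4.73, 5.29 and 5.45, and GIT1 had 6.40, 6.66 and 6.79, the latter above mismatch on no array. Beside HML, YCL068C had ratios of -0.23 and 0.09, and CHA1, a deaminase of serine and threonine breakdown, -0.81 and -0.94. Beside MAT, PHO87, a phosphate transporter, had -0.47 under pressure and -0.47 in the cold. YCR041W, the frame next to MATALPHA1, had levels of 8.89, 9.83 and 8.76, a pressure ratio of 0.95 and a cold ratio of -0.13.

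**Figure D4:**
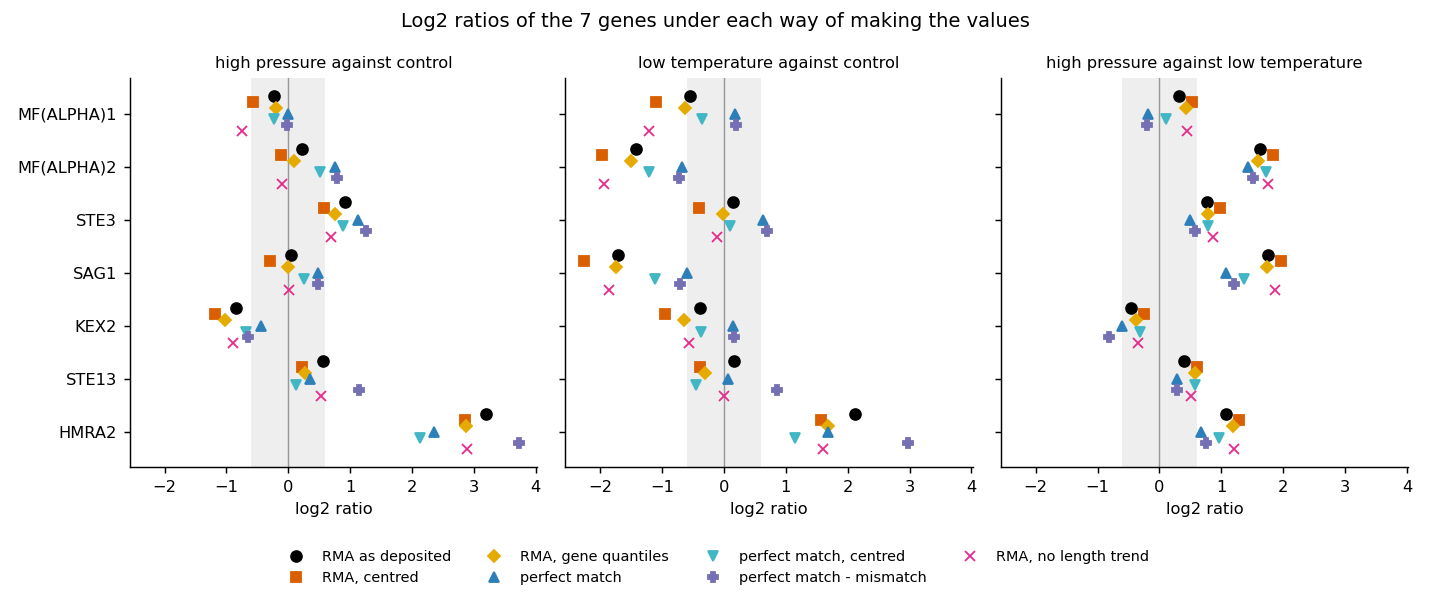
Log2 ratios of the 7 genes in the 3 comparisons under 7 ways of making the values, named in the legend. The grey band marks ratios inside 1.5-fold. HMRA2 lies right of the band in every panel and setting, SAG1 and MF(ALPHA)2 lie left of it in the cold, and MF(ALPHA)1 in the cold lies on either side of 0.

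The other genes of mating were read from lists (the plot of the mating lists), and their counts stand beside the shares of all genes counted higher and lower. Counts of these lists rested on the scaling, so the counts with RMA levels centred on the array medians are given too, with the range over 5 other ways of making the values (RMA centred, quantile-normalized gene values, perfect-match intensities with and without centring, and perfect-match minus mismatch differences). Of the 7 a-specific genes, which alpha2 represses, 0 were counted higher or lower in any of the 3 comparisons, with 5 of the 7 above mismatch on no array. Only 5 reached the level needed to be counted under pressure, 4 in the cold and 5 between the stresses. Of all genes 28.1%, 34.7% and 4.26% were higher, and 12.3%, 9.64% and 10.1% lower. So few genes cannot show that the list stayed the same. With centring AGA2 was lower under pressure, and MFA1, BAR1 and AGA2 in the cold, while with perfect-match intensities 3 were higher in the cold. Over the 5 other ways the cold counts ran from 0 to 3 higher and from 0 to 3 lower. Between the stresses they ran from 0 to 1 higher and from 0 to 2 lower. ASG7, at 5.05, 5.56 and 5.72, was too low to be counted. Their medians were -0.02 under pressure and -0.04 in the cold. STE2, the alpha-factor receptor of a cells, had levels of 5.38, 5.83 and 5.70, and AGA2, the binding subunit of a-agglutinin, had 6.23, 5.90 and 6.15.

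Of 10 genes of pheromone precursor processing, 1 was higher under pressure, KEX1, the carboxypeptidase that trims alpha-factor, by 0.79 (1.72-fold). Next to KEX2, STE23, a protease of a-factor maturation, was lower by 0.88 (1.84-fold lower). The counts of 1 higher and 2 lower stand beside 28.1% and 12.3% of all genes. With centring 0 were higher under pressure, KEX1 being at 0.44, and 2 were lower. Over the 5 other ways the pressure counts ran from 0 to 3 higher and from 0 to 2 lower. With perfect-match intensities KEX1 was at 0.33 under pressure, and STE23 at -0.56 under pressure and -0.44 in the cold, all inside 1.5-fold. In the cold 0 were higher and 1 was lower, STE23 at -1.07 (2.10-fold lower), beside 34.7% and 9.64% of all genes, and KEX1 was the highest at 0.32. With centring 7 were lower in the cold, where 30.8% of all genes were: STE23, KEX2, RAM2, RCE1, STE24, STE14 and AXL1. Over the 5 other ways the cold count ran from 0 to 7 lower. Between the stresses 0 of the list were counted, where 4.26% of all genes were higher and 10.1% lower. KEX1 had the highest ratio there at 0.47 and KEX2 the lowest at -0.46, and RCE1, a protease acting on the a-factor precursor, was at -0.07. With centring KEX1, STE13, RAM2 and STE24 were higher under pressure than in the cold. Over the 5 other ways these counts ran from 0 to 4 higher and from 0 to 1 lower.

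The pheromone signal passes from receptor to a G protein and a kinase cascade. Of 21 signalling genes, 5 were higher under pressure and 0 lower, where 28.1% and 12.3% of all genes were. The list's median was 0.20. With centring 2 were higher (STE18 and STE4) and 3 lower (MSG5, CDC42 and AKR1). Over the 5 other ways the counts ran from 2 to 6 higher and from 0 to 3 lower. As deposited, the genes counted higher included all 3 G protein subunits. STE18, the gamma subunit, was higher by 2.41 (5.30-fold), with levels of 6.68 in the control, 9.09 under pressure and 8.49 in the cold. STE4, the beta subunit, was higher by 1.37 (2.59-fold), and GPA1, the alpha subunit, by 0.84 with a control level of 5.30 that was not above mismatch, and by 0.49 with centring. The others were FAR1, which arrests the cell cycle, at 0.80 and STE50, an adaptor of the kinase Ste11, at 0.66 with a control level of 5.46 that was not above mismatch. With centring both fell inside 1.5-fold, at 0.45 and 0.32. The lowest was MSG5, a phosphatase, at -0.48. In the cold 4 were higher and 0 lower: STE18 at 1.80 (3.48-fold), STE4 at 1.26, GPA1 at 0.66 and the kinase gene STE20, whose levels of 6.26 in the control and 6.86 in the cold were not above mismatch. These 4, of 18 that reached the level needed to be counted, stand beside 34.7% of all genes higher and 9.64% lower. With centring STE18 and STE4 were higher, and FUS3, STE12, SST2, CDC42 and AKR1 were lower. Over the 5 other ways the cold counts ran from 1 to 9 higher and from 0 to 5 lower. AKR1, a palmitoyltransferase, was lowest there at -0.47. Pressure against cold gave 2 higher, SST2, which turns the G protein off, at 0.71 and STE18 at 0.60, and 1 lower, MSG5 at -0.64, where 4.26% of all genes were higher and 10.1% lower. There 19 of the 21 genes reached the level needed to be counted. With centring SST2 and STE18 were still counted higher, and MSG5 was not counted lower. Over the 5 other ways these counts ran from 1 to 2 higher and from 0 to 4 lower.

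Of 20 genes that pheromone induces, 15 reached the level needed to be counted under pressure, 12 in the cold and 14 between the stresses. The shares of all genes are likewise over genes that reached it. Under pressure 8 were higher and 0 lower, where 28.1% and 12.3% of all genes were. In the cold 3 were higher and 4 lower, where 34.7% and 9.64% of all genes were. The list's medians were 0.34 and 0.11. With centring 4 were higher under pressure (FIG1, KAR4, PRM5 and PRM8) and 1 lower (PRM10), and in the cold 1 was higher (PRM8) and 8 lower, among them PRM10, PRM3, PRM5 and KAR3. Over the 5 other ways the counts ran from 4 to 7 higher and from 0 to 1 lower under pressure, and from 1 to 3 higher and from 1 to 8 lower in the cold. The lowest in the cold was AGA1, the wall anchor of a-agglutinin, at -1.66 (3.15-fold lower), with levels of 11.28 in the control, 11.11 under pressure and 9.63 in the cold. GIC2, an effector of Cdc42, at -0.89, FIG2, a wall protein of mating, at -0.86 and PRM1, of membrane fusion, at -0.59 with a cold level not above mismatch, were the other lower genes. With perfect-match intensities AGA1 was at -0.28 in the cold, inside 1.5-fold. Pressure against cold gave 7 higher and 0 lower, where 4.26% and 10.1% of all genes were. With perfect-match intensities 1 was higher, where 1.73% of all genes were higher and 16.9% lower. Over the 5 other ways the counts ran from 1 to 7 higher and from 0 to 1 lower. RMA centred, quantile-normalized gene values and centred perfect-match intensities each gave 7 higher. The list was led by AGA1 at 1.48 (2.79-fold), with CIK1, a partner of the kinesin Kar3, lowest at -0.22. PRM8, a membrane protein, was the highest against the control, at 1.77 (3.40-fold) under pressure and 1.56 (2.95-fold) in the cold. Its control level of 7.39 was not above mismatch, so the size of these ratios is uncertain. With centring PRM8 was at 1.42 and 1.01, and with perfect-match intensities at 1.47 and 1.67. PRM10 was the lowest under pressure at -0.32. SAG1 and AGA1, both wall agglutinin genes, had cold ratios of -1.71 and -1.66 and pressure ratios of 0.05 and -0.18.

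Of 15 regulators of mating type and silencing, 10 reached the level needed to be counted in each comparison. Under pressure 1 was higher and 2 lower, where 28.1% and 12.3% of all genes were. The higher one was RME1, a haploid-specific repressor of meiosis, at 1.40 (2.64-fold). TUP1, a corepressor that acts with alpha2, was lower at -0.81 (1.75-fold lower), and ABF1, a silencer-binding factor, at -0.59. With perfect-match intensities both were inside 1.5-fold, TUP1 at -0.56 and ABF1 at 0.06. With centring SIR2 and RAP1 were lower too. Over the 5 other ways the pressure counts ran from 1 to 4 higher and from 0 to 4 lower. In the cold 3 were higher, RME1 at 1.89 (3.71-fold), NEJ1, a haploid-specific repair gene, at 0.97 and SWI5, an activator of HO, at 0.81 with a control level not above mismatch, and TUP1 was lower at -0.68. Over all genes 34.7% were higher and 9.64% lower. With perfect-match intensities TUP1 was at -0.26 in the cold, inside 1.5-fold. With centring RME1 at 1.34 was the 1 gene higher, NEJ1 at 0.41 and SWI5 at 0.26 fell inside 1.5-fold, and TUP1 and ABF1 were lower. Over the 5 other ways the cold counts ran from 1 to 7 higher and from 0 to 2 lower. MCM1, the partner of alpha1 and alpha2, had ratios of -0.06 under pressure and 0.31 in the cold. Of the Sir genes, SIR2 had levels of 6.36, 5.81 and 6.50, and SIR1, SIR3 and SIR4 were above mismatch on no array. Lower under pressure than in the cold were 3 genes, NEJ1 at -0.79, RAP1 at -0.73 and SIR2 at -0.69 with a high-pressure level not above mismatch, where 10.1% of all genes were lower. With centring NEJ1 was the 1 gene lower. Over the 5 other ways the count lower ran from 0 to 5. HO, the switching endonuclease, had levels of 4.58 under pressure and 5.64 in the cold, both too low to be counted, and SSN6, the partner of Tup1 (CYC8 in the files), was highest among the genes above mismatch on either array, at 0.07.

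**Figure D5:**
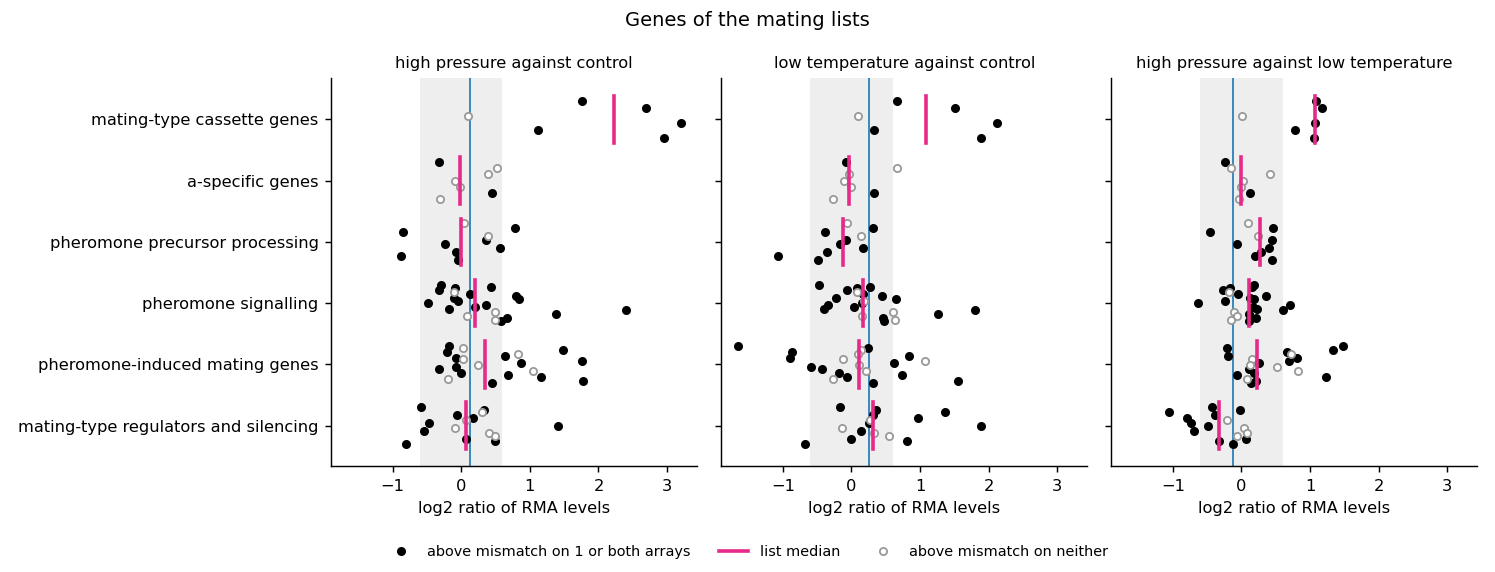
Log2 ratio of each gene in 6 mating lists for the 3 comparisons, with the list median (pink), the median of all genes (blue line) and the range inside 1.5-fold (grey). Open circles are genes above mismatch on neither array. The alpha1 and alpha2 rows lie right of the grey band in all panels except MATALPHA1 in the cold, at 0.33 inside it, and the a-specific genes lie in or beside the grey band.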

How the data were processed

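RNA of 3 pooled cultures per condition was hybridised to 1 array each. The main values are the deposited log2 levels, which the authors made with RMA and quantile normalization, per the labels. The medians of these levels differed, at 6.43 in the control, 6.77 under pressure and 6.98 in the cold. The gene levels therefore did not share 1 distribution across arrays, as quantile-normalized gene values would. The version of RMA was not given in the sources used. The deposited per-array files hold the mean perfect-match and mismatch intensity of each row and of their difference, and a coefficient of variation (the ratio of SD to mean over 15 probe pairs). The planned exchange of both sources was run.

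From these, rows of 1 gene were averaged on the log2 scale, which gave 6282 genes from 6337 rows. Rows took their names from RefSeq's R64 gene table by locus tag (1723 rows), symbol (3953) or synonym (139), and 522 kept the file's name. Gene lengths come from that table (91.8% of genes). No coordinates or sequences are given: no build is stated for the probes. A ratio is a difference of log2 levels. The t value for "above mismatch" comes from the deposited mean difference and coefficient of variation with 14 degrees of freedom, at a one-sided level of 5%, and overlapping probes, which are not independent, can overstate it. Genes whose higher level lay under the 25th percentile of its array were not counted. Across arrays the share of rows above mismatch was 54.2% to 62.4%, and the median level 6.43 to 6.98. The calculations used Python 3.11.15, pandas 2.3.3 and SciPy 1.17.1 and were tested on simulated data.

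The members and lists were chosen with earlier results of these data known. Named genes are all 7 members, all cassette and a-specific genes, the highest and lowest gene above mismatch on at least 1 array in each other list and comparison, and the 3 genes nearest to HMRA2. Genes named beyond these, where a count was small, and the flanking genes were chosen after their values were seen. The alternatives were median centring, quantile normalization of gene values, perfect-match intensities with and without centring, perfect-match minus mismatch differences, other filters, a 2-fold limit and, chosen after seeing the data, removal of the trend on gene length and the counts of the mating lists under the other scalings.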

Additional observations from a re-analysis of the deposited data

How the results depend on the processing

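Of 126 alternative values for the ratios of the 7 genes, 107 kept the direction or stayed inside 1.5-fold, 15 moved past 1.5-fold and 4 fell inside it; no ratio past 1.5-fold changed sign. HMRA2 in all 3 comparisons, and SAG1 and MF(ALPHA)2 in the cold and for pressure against cold, stayed past 1.5-fold under all 6 alternatives. The cause of the changes below was not tested. No paired analysis was possible because each condition has 1 array. No array was left out in turn, since dropping one removes the comparisons it enters and leaves the other unchanged. Counts are given as higher and lower.

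With RMA levels centred, STE3 under pressure was at 0.57, STE13 for pressure against cold at 0.61, and KEX2 and MF(ALPHA)1 in the cold at -0.94 and -1.10. Members higher under pressure were then 1 and lower in the cold 4. All genes numbered 824 and 1251 under pressure, 718 and 1521 in the cold, and 424 and 211 for pressure against cold, against 1378 and 603, 1698 and 471, and 205 and 487 as reported. Quantile normalization of gene values put KEX2 and MF(ALPHA)1 in the cold at -0.64 and -0.63, with 4 members lower. All genes were 918 lower under pressure, 997 and 973 in the cold, and 286 lower for pressure against cold.

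With perfect-match intensities MF(ALPHA)2 under pressure was at 0.75, KEX2 under pressure at -0.45 and against cold at -0.60, and STE3 in the cold at 0.63 and for pressure against cold at 0.49. Members were 0 lower under pressure, 2 higher in the cold and 1 lower for pressure against cold. All genes were 258 lower under pressure, 114 lower in the cold, and 84 and 822 for pressure against cold. With these intensities centred, all genes were 768 higher under pressure, 756 higher in the cold and 202 lower for pressure against cold.

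With perfect-match minus mismatch differences MF(ALPHA)2 and STE13 under pressure were at 0.78 and 1.14, STE3 and STE13 in the cold at 0.69 and 0.86, and STE3 and KEX2 for pressure against cold at 0.57 and -0.81. Members were 4 higher under pressure, 3 higher in the cold and 1 lower for pressure against cold. All genes were 2796 and 299 in the cold and 1534 lower for pressure against cold. Without the trend on gene length, MF(ALPHA)1 was at -0.76 under pressure and -1.21 in the cold, and 2 members were lower under pressure. All genes were 980 and 876 in the cold and 287 lower for pressure against cold. With a 2-fold limit, members were 1 and 0 under pressure, and all genes 729 and 252 under pressure, 920 and 184 in the cold, and 60 and 109 for pressure against cold. Signal over mismatch limits STE13, whose perfect-match intensity was 196 against a mismatch of 136 in the control, and HMRA2 in the control.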
